A study of Mus musculus with 8 samples.

Results

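The 35 genes described here are interferon-stimulated genes, a list of mRNAs that are known to be induced when a cell senses type I interferon. They were chosen by symbol and not by a rule on their values, though with earlier results of these data known. All 35 were present in the mRNA table, which holds 22272 genes, with 1 row for each. RNA was sequenced from 4 B-cell populations of mouse bone marrow. Female wild-type C57BL/6 mice of 8 to 10 weeks were the source. The gate for pro-B cells was B220+IgM-CD43+. Pre-B cells shared it but were CD43-, immature B cells were IgM+ and CD43- as well as B220+, and mature B cells were told from the immature ones by high B220 (B220hi IgM+CD43-). The animals carried no transgene or deletion and received no agent in the sources used here. Each stage gave 1 rRNA-depleted RNA library in which the cells of 3 mice were pooled, so no comparison has a replicate check, and the intervals given below cover counting error only.

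Type I interferon binds a receptor whose kinases, JAK1 and TYK2, activate transcription factors such as STAT2. STAT2 acts with IRF9 in the complex ISGF3, which binds interferon-stimulated response elements in the promoters of target genes. The targets encode sensors of viral RNA, enzymes that degrade or block viral RNA, and factors that amplify or end the signal, and many are transcribed at a low tonic level without infection. In the B lineage, type I interferon is known to act on interleukin-7-dependent progenitors and on the responses of mature cells.

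The response element is a sequence that the choice by symbol did not use. Promoter windows of 300 bases, from 250 before to 50 after the start site, were held in the RefSeq table (GRCm38.p6) for 25 of the 35 genes. The core GAAANNGAAA, read on both strands, so also as TTTCNNTTTC, was found in 13 of these 25 genes (52%). Among all 27025 genes with a window it was found in 1079 genes (3.99%). There were 20 matches in the 13 genes, and overlapping matches were merged into 17 stretches. The genes were Ddx58, Eif2ak2, Gbp2, Ifih1, Ifit1, Ifit3, Ifitm3, Isg15, Oas1a, Oas3, Rsad2, Stat2 and Trim30a. The stretches of 5 genes are printed because 4 of these genes differed between libraries in the ways given below, while Ifit1 was nearly absent from every library. Capitals mark the matched core, 10 flanking bases are in lower case, and each line reads 5′ to 3′ on the strand of the gene.
Isg15: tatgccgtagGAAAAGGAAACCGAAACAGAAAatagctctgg
Rsad2: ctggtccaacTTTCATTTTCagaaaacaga
Oas3: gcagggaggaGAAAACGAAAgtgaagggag
Ifit3: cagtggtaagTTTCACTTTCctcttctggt
Ifit1: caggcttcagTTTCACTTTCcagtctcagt
The Isg15 stretch lies at chr4:156200865-156200906 on the minus strand and joins 3 overlapping matches that begin 78 bases before the start site. The Rsad2 stretch lies at chr12:26456553-26456582 on the minus strand, 120 bases before the start site. The Oas3 stretch lies at chr5:120777715-120777744 on the minus strand, 75 bases before the start site. The Ifit3 and Ifit1 stretches lie on the plus strand, at chr19:34583363-34583392 and chr19:34640775-34640804, and begin 156 and 104 bases before their start sites. Ifit1 and Ifit3 share the core TTTCACTTTC, which Gbp2 also holds, and each of the pair has another match nearer to its start site. Ifi44, Cmpk2, Samd9l and Ifit2, which also differed between libraries, had windows without a match. A match describes letters only and was not a measure of binding.

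The libraries differed in the depth that reached mRNAs, and this bears on every value. The estimated mRNA counts of the pro-B, pre-B, immature and mature B libraries summed to 867920, 240231, 223495 and 849350. The counts of the lncRNA table differed in the opposite sense, and mRNA counts made up 23.7%, 6.48%, 6.48% and 23.5% of the counts of both tables, in this order of stages, which is kept throughout. Noncoding transcripts of genes in the mRNA table are counted in both tables and held 0.956%, 0.359%, 0.366% and 1.005% of these counts. Counts scaled to the mRNA total (CPM) were therefore the main scale, on which 1 count was worth 1.15, 4.16, 4.47 and 1.18 CPM. Over all genes, FPKM ratios differed from CPM ratios by a median log2 of -1.93 for pre-B against pro-B cells and 1.92 for mature against immature B cells, but by only 0.02 for immature B against pre-B cells and 0.01 for mature B against pro-B cells. For the last pair of comparisons the scale thus barely moved the typical gene, though single genes moved further. Known stage genes matched the pro-B and mature B labels. Dntt, the template-free polymerase of progenitors, had 845, 0, 0 and 0 counts. Ighd, the IgD constant region of mature cells, had 59, 13, 24 and 1607 counts. The pre-B label was matched less well: Rag1, Rag2, Il2ra and Vpreb3 summed to 1278, 1066, 576 and 15.2 CPM. Rag2 and Il2ra were highest in pre-B cells (316 and 83.3 CPM), but Rag1 in pro-B cells (918 CPM) and Vpreb3 in immature B cells. Ighm, Igkc, Ms4a1 and Cd93, listed for immature B cells, summed to 4337, 7530, 9504 and 5087 CPM. Of these, Cd93 was highest in pro-B cells (429 CPM).

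Markers of other cells were not equal among the libraries. Siglech, which marks plasmacytoid dendritic cells, the professional producers of type I interferon, had 105, 0, 4 and 0 counts. All 8 genes of that marker list had counts in the pro-B library and 4 of the 8 were at 0 in the mature B library. Their summed level was 929, 978, 1441 and 350 CPM, of which Ly6d, a gene that B progenitors also express, contributed 214, 903, 1307 and 260 CPM. Genes of the T and NK cell list summed to 178, 0, 0 and 5 counts, with 106 counts of Gzma and 38 of Nkg7 in the pro-B library and at most 2 counts of Cd3e or Cd3g in any library. Monocyte and macrophage genes summed to 523, 470, 313 and 350 CPM. Granulocyte genes summed to 1229, 1432, 1168 and 978 CPM. Erythroid genes summed to 438, 412, 266 and 236 CPM and plasma cell genes to 316, 375, 282 and 111 CPM, so both lists were lower in mature B than in pro-B cells, 1.86-fold (95% interval 1.56 to 2.22) and 2.85-fold (2.25 to 3.65). The part of these cells in the values of the interferon-stimulated genes was not tested, and in bulk RNA fewer cells that express a gene and less of its RNA per cell cannot be told apart.

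Interferon-stimulated genes were present at a low level in every stage and were lowest in sum in pre-B cells. Together they had 1602.48, 250.45, 317.09 and 1377.06 counts. On the CPM scale the pro-B sum was 1846 (95% Poisson interval 1757 to 1938), the pre-B sum 1043 (916 to 1178), the immature B sum 1419 (1267 to 1583) and the mature B sum 1621 (1537 to 1709). Pre-B cells were therefore lowest, and on this scale pro-B cells were highest. The pro-B sum was 1.77-fold that of pre-B cells (95% interval 1.55 to 2.03), the immature B sum was 1.36-fold that of pre-B cells (1.15 to 1.62), and the mature B sum was 0.878-fold that of pro-B cells (0.817 to 0.945). The difference between mature B and pro-B cells depended on the scaling: the ratio was 0.971 (0.903 to 1.04) with edgeR's TMM sizes and 0.994 (0.924 to 1.07) with DESeq2's size factors, both intervals including 1. The mature B sum was 1.14-fold the immature B sum (1.01 to 1.3). This last step and the place of pre-B cells as lowest rested on few genes. The 5 genes with the most counts (Parp14, Samd9l, Trim30a, Ddx58 and Stat2) held 35.6% of the counts in immature B and 61.9% in mature B cells. Without them the sums were 961, 651, 913 and 618 CPM and the mature B sum was 0.677-fold the immature B sum (0.575 to 0.800). Mature B cells were then lowest, though their interval (566 to 673) overlapped that of pre-B cells (551 to 760). The pre-B sum was still 0.676-fold the pro-B sum (0.566 to 0.803).

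**Figure D1:**
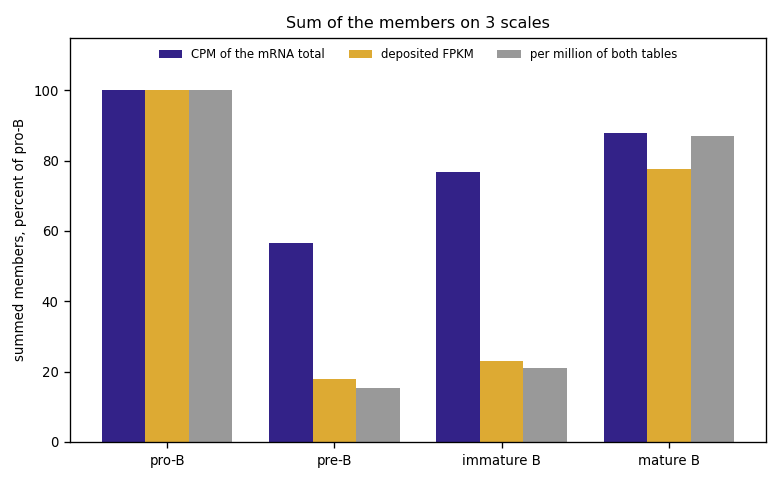
Sum of the 35 interferon-stimulated genes in each library as a percent of the pro-B library (vertical axis), on the CPM scale, from the deposited FPKM values, and as CPM of both tables together; each bar is 1 library. Pre-B cells stand at 56.5%, 18.0% and 15.4% of pro-B cells on these scales. Mature B cells stand at 87.8%, 77.7% and 87.1%. The FPKM of all genes together was 0.309-fold in pre-B against pro-B cells. Of all genes, 74.4% were called lower there with FPKM and 76.2% with the total of both tables. A low value in pre-B cells is therefore common to most genes on those scales. They are not a separate check of the low point on the CPM scale.

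On the scale of the deposited FPKM values, which allow for gene length, the sum was 121.88, 21.94, 27.9 and 94.73. The median gene stood at 3.08 FPKM in pro-B, 0.51 in pre-B, 0.58 in immature B and 1.88 in mature B cells. An FPKM of at least 1 was reached by 31, 9, 10 and 25 of the 35 genes. Over the whole mRNA table it was reached by 8654, 4111, 4175 and 8012 genes, so fewer genes of any kind reached it in the pre-B and immature B libraries. The highest levels per length in pro-B cells were those of Ifi27 with 12.74 FPKM, Ddx58 with 9.24 and Trim30a with 8.82. In mature B cells they were those of Samd9l with 13.09 FPKM, Ddx58 with 8.77 and Ifi27 with 6.81. No counts at all were assigned to 1, 7, 7 and 2 of the genes, and at least 10 counts to 31, 13, 13 and 27 of them.

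**Figure D2:**
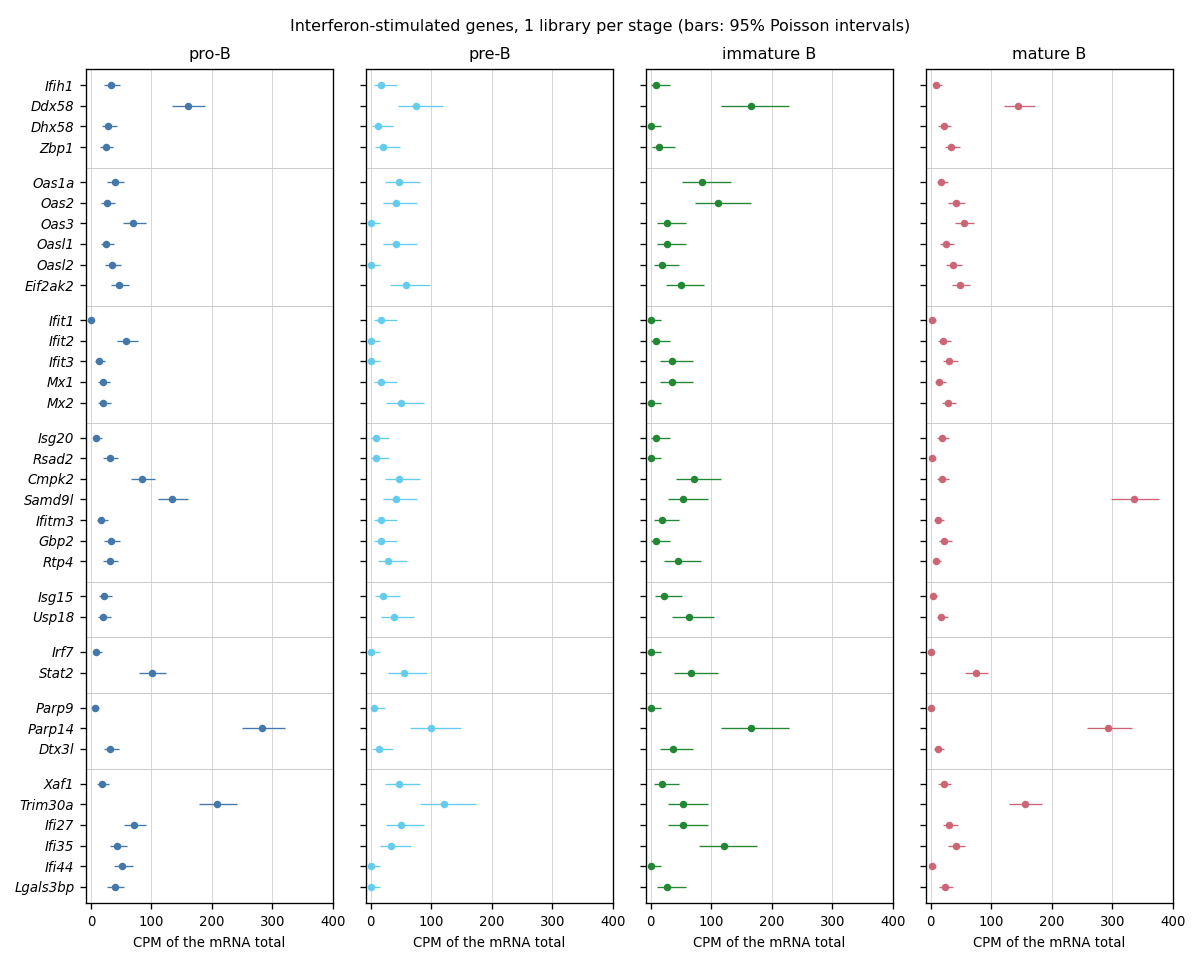
Level of each of the 35 genes (rows, ordered by role) in the 4 libraries (panels), in CPM of the mRNA total, with exact 95% Poisson intervals as bars. Most genes lie below 100 CPM in every library; Parp14 at 283 and 293 CPM in pro-B and mature B cells and Samd9l at 336 CPM in mature B cells stand out.

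Single genes were called different between 2 libraries when their CPM differed at least 2-fold, the exact 95% interval of the ratio left out 1, and the libraries together held at least 10 counts. A count of 0 was replaced by 3 counts, the number that a count of 0 allows, which makes the ratio a bound for that count only. The 95% interval, which also covers the counting error of the other library, can reach a smaller difference. In pre-B against pro-B cells 32 genes had enough counts, of which 2 were higher and 8 lower. The same rule called 14.4% of all genes higher and 23.7% lower, so the share of lower genes among the 32 (25%) was near that of all genes. The median log2 ratio was -0.65, against -0.34 over all genes. On the FPKM scale the split was 0 higher and 27 lower, where 1.94% and 74.4% of all genes were called. In immature B against pre-B cells 3 of 19 genes were higher and 2 lower, where 12.4% and 12.6% of all genes were called, and the median log2 ratio was 0.62 against -0.01. In mature B against immature B cells 3 of 29 genes were higher and 7 lower, where 19.6% and 17.6% of all genes were called, and the median was -0.03 against 0.16. On the FPKM scale that split was 19 higher and 0 lower, where 69.0% and 2.66% of all genes were called. In mature B against pro-B cells, the pair of deepest libraries, 2 of 32 genes were higher and 10 lower (31.2%), where 10.9% and 20.7% of all genes were called, and the median was -0.43 against -0.18. The intervals cover counting error alone, so a spread between samples was also allowed for in an alternative, edgeR's exact test at a dispersion of 0.16 (the larger dispersion below). It kept 5 of the 10 calls in pre-B against pro-B cells (Oas3, Oasl2, Ifit2, Ifi44 and Lgals3bp) and 1 of 5 in immature B against pre-B cells (Mx2). It kept 4 of 10 in mature B against immature B cells (Oas1a, Mx2, Samd9l and Rtp4) and 4 of 12 in mature B against pro-B cells (Rsad2, Cmpk2, Isg15 and Ifi44).

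**Figure D3:**
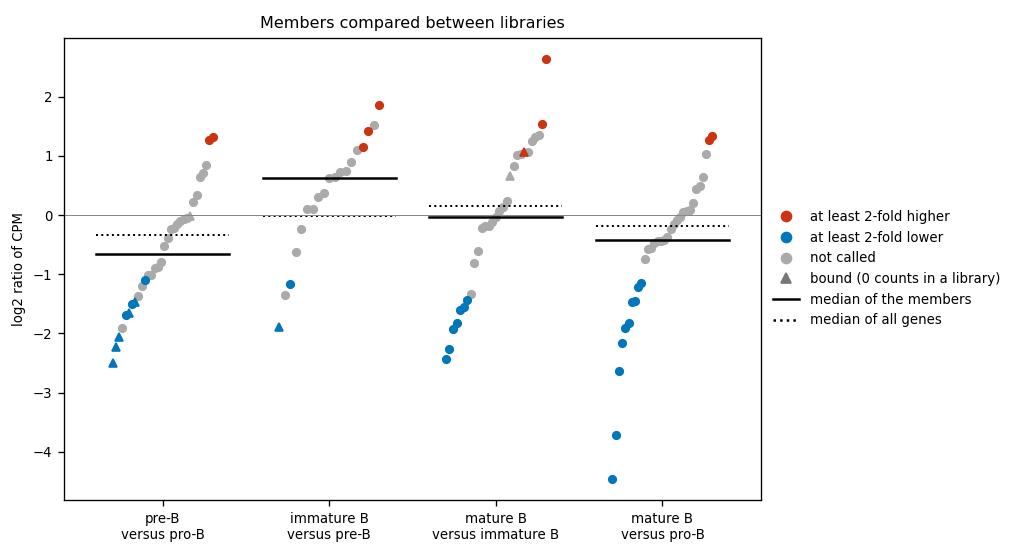
log2 ratio of CPM (vertical axis) of every gene with at least 10 counts in the comparison (horizontal axis), sorted within each comparison; red and blue points were called at least 2-fold higher or lower, triangles are bounds, and solid and dotted lines are the medians of the listed genes and of all genes. The solid line lies at 0.62 for immature B against pre-B cells, above the dotted line at -0.01, and the most extreme points are those of mature B against pro-B cells, at -4.46 and -3.72.

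The stage in which a gene stood highest was compared with the whole table on the CPM scale. Of the 32 genes with at least 10 counts in a library, 12 were highest in pro-B, 4 in pre-B, 11 in immature B and 5 in mature B cells. Over all 9878 such genes the shares were 34.1%, 20.9%, 19.6% and 25.4%, against 37.5%, 12.5%, 34.4% and 15.6% here. The widest gap was in immature B cells, where 1 count was worth the most CPM. By FPKM, 25 of the 32 genes were highest in pro-B cells, 7 in mature B cells and 0 in the other libraries.

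**Figure D4:**
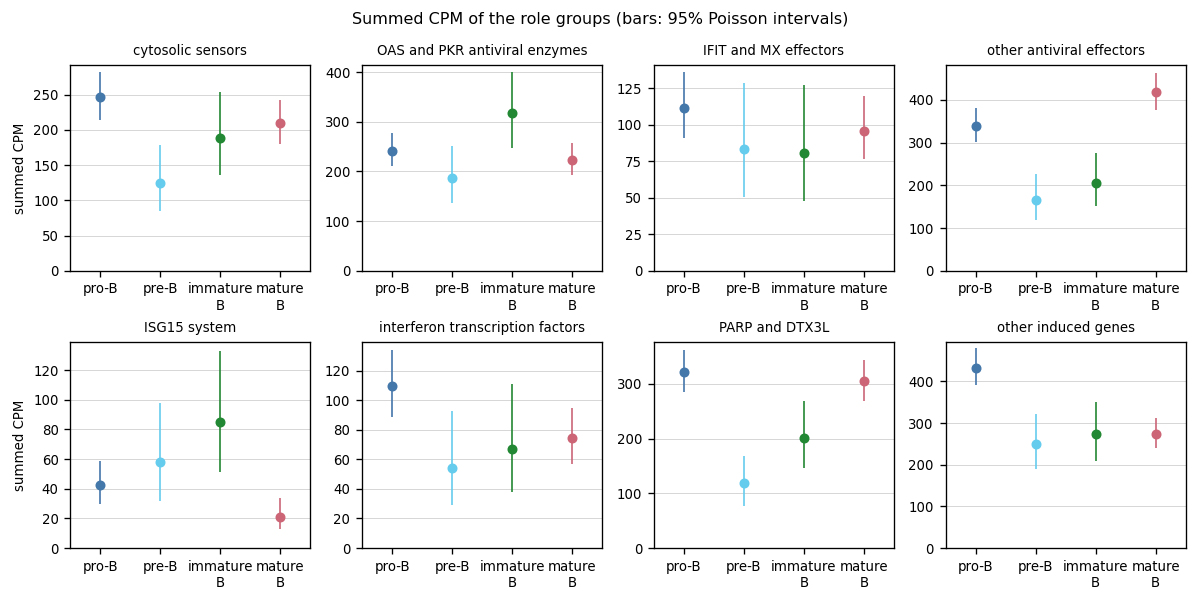
Summed CPM (vertical axes, each from 0) of 8 groups of interferon-stimulated genes by role in the 4 libraries (horizontal axes), with exact 95% Poisson intervals as bars. The sensors and the PARP and DTX3L group are lowest in pre-B cells, the ISG15 group is lowest in mature B cells at 21.2 CPM (by FPKM it is lowest in pre-B cells), and the other antiviral effectors are highest in mature B cells at 418 CPM.

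The cytosolic sensors detect foreign nucleic acid and start interferon production. Their sum was 247, 125, 188 and 210 CPM. Ddx58, which encodes RIG-I, the sensor of RNA with a 5′ triphosphate, had 139, 18, 37 and 123 counts, or 160, 74.9, 166 and 145 CPM. It was low in the pre-B library and between 145 and 166 CPM in the others. The pre-B level was 2.14-fold below the pro-B level (log2 ratio -1.10, 95% interval -1.89 to -0.38), a call that was lost with edgeR's TMM sizes, with DESeq2's size factors and at a larger dispersion. The immature B level was 2.21-fold above the pre-B level (log2 ratio 1.14, interval 0.29 to 2.04), which was lost on the FPKM scale, with halved counts and at the larger dispersion. Ifih1, which encodes MDA5, the sensor of long double-stranded RNA, had 29, 4, 2 and 8 counts. It was highest in pro-B cells, and the mature B level was 3.55-fold lower (log2 ratio -1.83, interval -3.17 to -0.66). Dhx58, which encodes LGP2, a regulator of both receptors, had 25, 3, 0 and 18 counts. Zbp1, a sensor of Z-form nucleic acid, had 21, 5, 3 and 29 counts. On the CPM scale neither Dhx58 nor Zbp1 was called in any comparison.

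The oligoadenylate synthetases make 2′-5′ oligoadenylate, which activates RNase L, and PKR blocks translation. The sum of this group was 242, 187, 318 and 223 CPM, highest in immature B cells, but 18.17, 5.39, 4.75 and 12.9 FPKM, where immature B cells were lowest. Oas1a had 33.96, 11, 19 and 15 counts, or 39.1, 45.8, 85.0 and 17.7 CPM. On the CPM scale it was lowest in mature B cells, by FPKM in pre-B cells. The mature B level was 2.22-fold below pro-B cells (log2 ratio -1.15, interval -2.13 to -0.23) and 4.81-fold below immature B cells (log2 ratio -2.27, interval -3.35 to -1.21). The difference from pro-B cells was lost with DESeq2's size factors, with halved counts and at the larger dispersion, and the difference from immature B cells on both scales that count lncRNA. Oas2 had 23, 10, 25 and 35 counts, or 26.5, 41.6, 112 and 41.2 CPM. Its CPM was highest in immature B cells, 2.69-fold above pre-B (log2 ratio 1.43, interval 0.32 to 2.65) and 2.71-fold above mature B cells. The difference from pre-B cells was lost on the FPKM scale (log2 ratio 0.31), with halved counts and at the larger dispersion, and on the FPKM scale mature B cells were above immature B cells. Oas3 had 61, 0, 6 and 46 counts. With its 0 counts in pre-B cells set to 3, it was 5.63-fold lower there than in pro-B cells (log2 ratio -2.49, interval up to -2.15). This call was made under all 11 alternatives. Oasl2, an OAS-like gene, had 30, 0, 4 and 31 counts. With the 0 set to 3, it was 2.77-fold lower in the pre-B than the pro-B library (log2 ratio -1.47, interval up to -1.08). Oasl1, whose product restrains Irf7 translation, had 22, 10, 6 and 21 counts, and Eif2ak2, which encodes PKR, had 40, 14, 11 and 41 counts. On the CPM scale neither was called in any comparison, and Eif2ak2 ranged only from 46.1 to 58.3 CPM. Reads of Oas1a may be shared with its near copies: Oas1b, Oas1c, Oas1g and Oas1h had at most 12 counts each in any library.

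The IFIT proteins bind viral RNA, and the MX proteins are dynamin-like GTPases that trap viral components. Their sum, 112, 83.3, 80.5 and 96.0 CPM, had overlapping intervals in all 4 libraries. Ifit2 had 50.81, 0, 2 and 17.55 counts. It was highest in pro-B cells, 4.71-fold above pre-B cells with the 0 set to 3 (log2 ratio of pre-B to pro-B -2.23, interval up to -1.88). It was 2.77-fold above mature B cells (log2 ratio of mature B to pro-B -1.47, interval -2.33 to -0.67). Ifit3 had 11, 0, 8 and 25.99 counts and went the other way: the mature B level was 2.42-fold above the pro-B level (log2 ratio 1.27, interval 0.21 to 2.44), a call lost with halved counts and at the larger dispersion. Ifit2 and Ifit3 are direct neighbours on chromosome 19. Ifit3b, a near copy that could share reads with Ifit3, had 0, 0, 0 and 13.01 counts. Ifit1, one of the most inducible interferon targets, had 0, 4, 0 and 2 counts and was never tested. Mx1 and Mx2 are disrupted in C57BL/6 mice, and the RefSeq table lists both as transcribed pseudogenes. Mx1 had 17, 4, 8 and 12 counts and was not called on the CPM scale. Mx2 had 18, 12, 0 and 24 counts. Its pre-B level was 2.41-fold above the pro-B level in CPM (log2 ratio 1.27, interval 0.08 to 2.40), which turned to a log2 ratio of -1.49 on the FPKM scale. With the 0 set to 3, its immature B level was 3.72-fold below the pre-B level (log2 ratio -1.90, interval up to -1.37). It was 2.11-fold below the mature B level (log2 ratio of mature B to immature B 1.07, interval from 0.66).

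The other antiviral effectors act on viral entry, RNA and nucleotides. Their sum was 340, 167, 206 and 418 CPM. Samd9l, a restriction factor of poxviruses that also limits proliferation of haematopoietic cells, had 116, 10, 12 and 285 counts, or 134, 41.6, 53.7 and 336 CPM. It was highest in mature B cells, 6.25-fold above immature B cells (log2 ratio 2.64, interval 1.82 to 3.61) and 2.51-fold above pro-B cells (log2 ratio 1.33, interval 1.01 to 1.65). The difference between mature and immature B cells was called under all 11 alternatives, and that from pro-B cells was lost at the larger dispersion only. In pre-B cells it was 3.21-fold below pro-B cells (log2 ratio -1.68, interval -2.78 to -0.75). Samd9l alone made up most of the group's sum in mature B cells. Rsad2, which encodes viperin, an enzyme that makes a chain-terminating nucleotide, had 27, 2, 0 and 2 counts. The mature B level was 13.2-fold below the pro-B level (log2 ratio -3.72, interval -6.84 to -1.73). Cmpk2, the direct neighbour of Rsad2 on chromosome 12 and a nucleotide kinase, had 73, 11, 16 and 16 counts, or 84.1, 45.8, 71.6 and 18.8 CPM. It was 4.46-fold lower in mature B than in pro-B cells (log2 ratio -2.16, interval -3.04 to -1.36), under all 11 alternatives. Its level in mature B cells was also 3.80-fold below that in immature B cells in CPM, while the FPKM of both was 0.95. Rtp4, a chaperone of receptor trafficking, had 27, 7, 10 and 7 counts and was 3.77-fold lower in mature B than in pro-B cells (log2 ratio -1.92, interval -3.36 to -0.68). It was also 5.43-fold lower in mature than in immature B cells in CPM, a call lost on both scales that count lncRNA and with a minimum of 30 counts. Isg20, an exonuclease, had 8, 2, 2 and 16 counts, Ifitm3, which blocks viral entry, had 15, 4, 4 and 10 counts, and Gbp2, a guanylate-binding protein, had 29, 4, 2 and 19 counts. On the CPM scale none of these last genes was called in any comparison. Ifitm2, which is close in sequence to Ifitm3, had 31.27, 4, 3 and 6 counts.

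Isg15 encodes a ubiquitin-like modifier, and Usp18 encodes the protease that removes it and also dampens receptor signalling. Their sum was 42.6, 58.3, 85.0 and 21.2 CPM. Isg15 had 19, 5, 5 and 3 counts, or 21.9, 20.8, 22.4 and 3.53 CPM. In CPM the 3 earlier stages lay close together, while by FPKM, with 4.97, 1.24, 1.35 and 0.81, pro-B cells stood above all others; mature B cells were lowest on both scales. The mature B level was 6.20-fold below the pro-B level (log2 ratio -2.63, interval -5.03 to -0.87), which was lost only with a minimum of 30 counts, under which it was not tested. Usp18 had 18, 9, 14 and 15 counts, or 20.7, 37.5, 62.6 and 17.7 CPM. It was 3.55-fold lower in mature than in immature B cells (log2 ratio -1.83, interval -2.98 to -0.67), which on the FPKM scale became a log2 ratio of 0.09.

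Irf7 and Stat2 encode transcription factors that are themselves induced. Stat2, a subunit of ISGF3, had 87, 13, 15 and 63 counts, or 100, 54.1, 67.1 and 74.2 CPM. On the CPM scale it was not called in any comparison. Irf7, the factor that amplifies interferon production and is constitutive in plasmacytoid dendritic cells, had 7.92, 0, 0 and 0 counts and was too low to test.

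Parp14, a mono-ADP-ribosyltransferase that takes part in interleukin-4 responses of B cells, had the most counts of all 35 genes, with 246, 24, 37 and 249 counts, or 283, 99.9, 166 and 293 CPM. Its pro-B and mature B intervals overlapped, and both stood above that of pre-B cells. The pre-B level was 2.84-fold below the pro-B level (log2 ratio -1.50, interval -2.17 to -0.90), a call lost at the larger dispersion only. Dtx3l, a ubiquitin ligase, had 27.71, 3.06, 8.09 and 10.17 counts. It was 2.74-fold lower in mature B than in pro-B cells (log2 ratio -1.45, interval -2.66 to -0.37), which was lost with halved counts and at the larger dispersion. Against immature B cells it was 3.04-fold lower, a call made under 5 of 11 alternatives, and above them with the total of both tables. Parp9, the partner of Dtx3l, had 5.37, 1.28, 0 and 0 counts. Parp14, Dtx3l and Parp9 lie next to each other on chromosome 16, and Dtx3l and Parp9 overlap in the annotation, so that counts of this pair could be split between them.

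The remaining genes have other or less settled roles. Their sum was 433, 250, 273 and 275 CPM. Trim30a, which encodes a TRIM protein that limits NF-kB signalling, had 180.71, 29.11, 12 and 131.9 counts, or 208, 121, 53.7 and 155 CPM. It was lowest in immature B cells, 2.25-fold below pre-B cells (log2 ratio -1.17, interval -2.27 to -0.15) and 2.89-fold below mature B cells. The difference from pre-B cells was lost with halved counts and at the larger dispersion, and that from mature B cells at the larger dispersion. Its near copy Trim30d had 68.74, 7, 30 and 50.42 counts. Ifi44 had 45, 0, 0 and 2 counts so 45 of its 47 counts lay in the pro-B library. The mature B level was 22.0-fold lower than the pro-B level (log2 ratio -4.46, interval -7.55 to -2.52). The pre-B level, with the 0 set to 3, was 4.15-fold lower than the pro-B level (log2 ratio -2.05, interval up to -1.70). Both calls were made under all 11 alternatives. Ifi27 had 62, 12, 12 and 26 counts and was 2.33-fold lower in mature B than in pro-B cells (log2 ratio -1.22, interval -1.94 to -0.54), which was lost on the FPKM scale and at the larger dispersion. Ifi35 had 38, 8, 27 and 35 counts, or 43.8, 33.3, 121 and 41.2 CPM. It stood out in immature B cells, 3.63-fold above pre-B cells (log2 ratio 1.86, interval 0.68 to 3.21) and 2.93-fold above mature B cells, though on the FPKM scale mature B cells were above immature B cells. Lgals3bp, a secreted galectin-binding protein, had 34, 0, 6 and 20 counts. With the 0 set to 3, it was 3.14-fold lower in the pre-B than the pro-B library (log2 ratio -1.65, interval up to -1.27). Xaf1, which promotes apoptosis, had 16, 11, 4 and 18.45 counts and was 2.48-fold higher in the pre-B than the pro-B library in CPM (log2 ratio 1.31, interval 0.06 to 2.51), but lower on the FPKM scale with a log2 ratio of -2.38.

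The genes that were called lower in mature B than in pro-B cells came from 7 of the 8 role groups: Ifih1, Oas1a, Ifit2, Rsad2, Cmpk2, Rtp4, Isg15, Dtx3l, Ifi27 and Ifi44. Of these, Cmpk2 and Ifi44 kept the call under every alternative. In the same comparison 20.7% of all genes were called lower. Of the plasmacytoid dendritic cell markers 6 of 8 were lower, and of the T and NK cell markers 4 of 6. Siglech went from 121 CPM to 0 and Gzma from 122 CPM to 0. All 6 genes of the pro-B list and all 4 of the pre-B list were also lower. All 6 of the mature B list were higher. Whether the RNA of the 10 interferon-stimulated genes came from B-lineage cells of the pro-B gate was not tested.

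Members of the pathway upstream were measured in the same libraries. Of the ligands, Ifnb1 and every listed Ifna gene had 0 counts in all 4 libraries, Ifng had 20, 0, 2 and 0 counts and Ifnk had 14, 28, 8 and 17 counts. The receptors and kinases summed to 1282, 629, 801 and 1701 CPM. Of these 9 genes, 1 was higher and 5 lower in the pre-B than the pro-B library, where 14.4% and 23.7% of all genes were called. In mature against immature B cells 4 of 8 were higher and 1 lower, where 19.6% and 17.6% of all genes were called. Both comparisons move with the scale, as given above. Ifnar1, one chain of the type I receptor, had 179, 7, 24 and 149 counts. Ifnar2, its other chain, had 110, 22, 27 and 28 counts and was lower in mature B than in pro-B cells (log2 ratio -1.94). Tyk2 had 90, 4, 5 and 67 counts and Jak1 had 391, 52, 53 and 751 counts.

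Among the transcription factors, Irf9 had 119, 15, 27 and 116 counts, so Stat2 and Irf9 were each within 2-fold between pro-B and mature B cells. Irf8, which is active in B-cell and dendritic cell development, had 783, 59, 132 and 536 counts. Irf2, Irf8 and Irf9, 3 of the 7 tested, were lower in the pre-B than the pro-B library, where 23.7% of all genes were called lower. Irf5, 1 of the 7, was higher in mature B than in pro-B cells, where 10.9% of all genes were called higher. The nucleic acid sensing adaptors and receptors summed to 525, 183, 443 and 781 CPM. Of the 8 tested, 6 were lower in the pre-B than the pro-B library, against the same 23.7% of all genes. That comparison moves with the scale, as given above. Tlr9, the endosomal DNA receptor, had 116, 29, 51 and 250 counts. The negative regulators summed to 1460, 887, 1298 and 1741 CPM. Socs1, which inhibits JAK kinases, had 15, 21, 2 and 0 counts, whereas Socs3 had 0, 0, 0 and 58.68 counts.

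A list of 84 further interferon-induced genes, of which 82 were in the table, summed to 9198, 6113, 7425 and 10547 CPM. It was lowest in pre-B cells, like the 35 genes, but highest in mature B cells. In pre-B against pro-B cells 2 of 65 were higher and 20 lower, against 14.4% and 23.7% of all genes. In immature B against pre-B cells 9 of 48 were higher and 3 lower, against 12.4% and 12.6%. In mature B against immature B cells 15 of 64 were higher and 8 lower, against 19.6% and 17.6%. In mature B against pro-B cells 12 of 69 were higher and 15 lower, against 10.9% and 20.7%. Bst2, which encodes tetherin and also marks plasmacytoid dendritic cells, had 259, 18, 40 and 38 counts and was lower in mature B than in pro-B cells (log2 ratio -2.74). Helz2, a helicase, had 557, 120, 106 and 1626 counts and was higher in mature B than in pro-B cells (log2 ratio 1.58). Shisa5 had 54, 10, 22 and 432 counts (log2 ratio 3.03 for the same comparison). Genes of this list therefore lay on both sides of the pro-B level in mature B cells.

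The deposited annotation and the circRNA table were also searched for the 35 genes. The process term defense response to virus was given to 23 of them and to 234 of all 22298 rows (1.05%). Binding of double-stranded RNA was given to 9, among them Ddx58, Ifih1, Dhx58, Eif2ak2 and the OAS genes. None of the 1005 listed circRNAs had any of the 35 as its source gene. In the RefSeq table, 13 of the 35 genes lay within 5 protein-coding genes of another of them.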

How the data were processed

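The authors cleaned reads with fastp 0.18.0, removed rRNA with Bowtie2 2.2.8, mapped with HISAT2 2.1.0 and quantified with StringTie 1.3.4, which gave the deposited estimated counts, not all whole and without normalization. The deposited FPKM values are scaled by length and mapped fragments. The circRNA counts are back-spliced reads as deposited by the authors. The genome build of these tables is not given in the sources used here; the submitters' processing notes name mm9 and Bowtie 0.12.2 without a role. Authors' comparison columns were not used, nor was the miRNA table.

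Counts were summed by symbol, divided by the column total and multiplied to CPM. Levels have exact Poisson intervals and ratios exact conditional binomial intervals (95%), on counts rounded to whole numbers. Calls needed 10 counts over both libraries and a 2-fold ratio; the floor was 3 counts. With 1 library per stage, no p-value is given; edgeR's exact test, which compares 2 libraries and not stages, served as an alternative call rule (p under 0.05) at 2 assumed dispersions. The genes and all lists were chosen with earlier results of these data known. All 35 genes are accounted for, with values in every library; genes of other lists were named for their counts or calls. Stages came from the sample labels. The 11 alternatives were TMM (edgeR 4.0.16), DESeq2 1.42.0 size factors, FPKM, no minimum, a minimum of 30 counts, halved counts (52.5% to 63.9% of counts above 0 were even), 1 row per symbol, edgeR's exact test at assumed dispersions of 0.0001 and 0.16 (the larger dispersion; the study's own value is not given in the sources used here), and, chosen after seeing the data, the total of both tables and counts less lncRNA-table transcripts. Python 3.11.15, numpy 2.4.6, pandas 2.3.3, scipy 1.17.1, matplotlib 3.10.9 and R 4.3.3 were used, and the calling rule was tested on simulated data. A gene of the transcription factor list is not reported here.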

Additional observations from a re-analysis of the deposited data

Results flagged for a closer look

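The lncRNA table, which the comparisons did not use, held counts for noncoding transcripts of the listed genes above the 3 counts that a count of 0 allows. The gene-level counts include them: for 3752 of 3754 symbols present in both tables the lncRNA counts were no more than the gene count in all 4 libraries, within 0.02 counts. Ddx58 had 22.03 such counts in pro-B, 11.07 in pre-B, 8.83 in immature B and 34.77 in mature B cells, which in pre-B cells was 61.5% of its 18 counts. Oasl1 had 6.79 in pro-B, 10 in pre-B and 8.19 in mature B cells, so all 10 of its pre-B counts were of this kind. Mx1 had 15.78 of 17 counts in pro-B and 5.47 in mature B cells. Dhx58 had 3.76 in pro-B and 5.08 in mature B cells. In pro-B cells Eif2ak2 had 4, Mx2 had 4 and Ifi44 had 4.16 of 45. These transcripts made up 3.79%, 8.92%, 3.04% and 3.89% of the counts of the 35 genes. With them taken out, every call listed above was still made.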

How the results depend on the processing

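No paired analysis was possible because each stage has 1 library, and for the same reason no replicate could be left out. The 12 calls in mature B against pro-B cells depended least on the scale: 11 were kept with FPKM and 12 with the total of both tables. The number of calls became 4 at the dispersion of 0.16 and stayed between 9 and 13 otherwise, with a median log2 ratio below 0 throughout. The summed ratio of that comparison did move, from 0.878 on the CPM scale to 0.971 with TMM and 0.994 with DESeq2's size factors. The 10 calls in pre-B against pro-B cells became 27 with FPKM, 28 with the total of both tables and 5 at the dispersion of 0.16. Of all genes, 74.4% were called lower with FPKM and 76.2% with the total of both tables. The median log2 ratio of the listed genes became -2.69 with FPKM and -2.52 with the total of both tables. Mx2 and Xaf1 turned to -1.49 and -2.38 with FPKM and to -0.60 and -0.56 with the total of both tables. The 10 calls in mature B against immature B cells became 19 with FPKM and 19 with the total of both tables. Of all genes, 69.0% and 71.3% were called higher on these scales. The calls became 6 with a minimum of 30 counts and 4 at the dispersion of 0.16. The median of that comparison turned to 0.041 with TMM, 2.19 with FPKM and 1.83 with the total of both tables. In it Oas2, Ifi35 and Usp18 turned to 0.48, 0.50 and 0.093 with FPKM and to 0.42, 0.31 and 0.032 with the total of both tables, and Dtx3l to 0.25 with the latter. The 5 calls in immature B against pre-B cells became 8 without a minimum, 2 with halved counts and 1 at the dispersion of 0.16, and the median became 1.02 over the 6 genes with 30 counts. For FPKM and the total of both tables, the scale itself moves these ratios, as given above; the cause was not tested for the other settings beyond fewer genes or wider intervals.

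The sum of the 35 genes, in the order of stages, was 1748, 1055, 1415 and 1697 with TMM and 1633, 1050.5, 1428 and 1623 with DESeq2's size factors, so that pro-B cells no longer stood apart from mature B cells. It was 121.88, 21.94, 27.9 and 94.73 with FPKM and 437, 67.5, 91.9 and 381 in CPM of both tables. Without Parp14 it was 1563 in pro-B, 1253 in immature B and 1328 in mature B cells. Without the 5 genes with the most counts, left out after the data were seen, it was 961, 651, 913 and 618 CPM, lowest in mature B cells. Depth limits the pre-B and immature B libraries most, where 22 of the 35 genes had fewer than 10 counts and a count of 0 allows 12.5 and 13.4 CPM.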
